A study of Mus musculus with 19 samples.

Results

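The normal liver of the mouse shortly before birth was described from 5 control embryos, all taken at day 18.5 of development, each measured as 1 poly-A enriched RNA library. They are 5 of the 19 samples of a study of fibrolamellar carcinoma, and were chosen by their genotype label, control. The other 4 embryonic livers carried a DNAJB1-PRKACA fusion cDNA with GFP in the Rosa26 locus behind a stop cassette, which Cre under the albumin promoter removes in liver from mid-gestation, and the other 10 samples were tumours grown from FL8 cells. Neither group is used here. The labels give the control livers no strain, sex, litter or allele, so it is not known which of the control embryos held Cre or the silent fusion cassette. The labels do not say that the 5 embryos came from separate litters, and the spread between livers reported here is the spread between these 5 libraries. The labels split the controls no further, and no p-value was computed; livers are compared with each other as a description. Levels are CPM (a gene's counts scaled to a library total of 1000000), given per liver as controls 1 to 5, with mean ± SD over n = 5.

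The fetal liver is a metabolic and a blood-forming organ at the same time. Hepatoblasts, the common precursors of hepatocytes and bile duct cells, mature into hepatocytes that secrete plasma proteins, while red cell precursors, granulocyte and megakaryocyte precursors and a small number of blood stem cells occupy the spaces between the hepatocyte cords and the sinusoids. Around birth, blood formation moves to the bone marrow and hepatocytes take up the functions of the adult organ, such as making glucose, detoxifying ammonia and secreting bile. In RNA from whole tissue, fewer cells of a type and less RNA per cell cannot be told apart. Every level below is a share of the counts of the genes analysed, taken over the whole liver.

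The 5 libraries held 17.8, 7.66, 20.7, 23.1 and 22.3 M (1000000) counts in controls 1 to 5. Of 13549 genes in the table, 12568 had a mean of at least 1 CPM, 8277 of at least 10 CPM, 1437 of at least 100 CPM and 108 of at least 1000 CPM. A count of 3, taken as the floor, is 0.13 to 0.392 CPM. The libraries fell into 2 sets. Xist, the RNA that silences an X chromosome in females, was at 448, 391, 0.242, 0.302 and 0.448 CPM, and the Y-linked helicase gene Ddx3y at 0.056, 0, 33, 42.4 and 41.8 CPM, so controls 1 and 2 had a female and controls 3 to 5 a male pattern. The same split appeared in many genes. Spearman's rho across all 13549 genes was 0.989 between controls 1 and 2. It was 0.9916 to 0.9942 among controls 3 to 5, and 0.9694 to 0.978 between the sets. Rn45s, the precursor of ribosomal RNA, took 3.54 and 2.66% of counts in controls 1 and 2 against 0.669, 0.622 and 1.34% in controls 3 to 5. Sex, the share of Rn45s and whatever else separates these sets cannot be told apart, and values are therefore given for each liver.

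Among the genes analysed, the most abundant transcripts were those of secreted liver proteins. Adult globin and mitochondrial genes were not analysed here, so the ranks and shares of counts leave both out. Of the 25 genes with the highest mean CPM, 17 were on a list of 52 plasma protein genes, 3 encoded ribosomal proteins, and the other 5 were Rn45s, the imprinted RNA H19, the metal-binding metallothionein gene Mt1, the ferritin light chain gene Ftl1 and the lactate dehydrogenase gene Ldha. The 10 most abundant genes held 21 to 25% of the counts of a library, and 188 to 207 genes held the first 50%. Of the 25 genes of the mean, 17 were among the first 25 in every one of the 5 livers. Because a long transcript yields more reads than a short one, genes are ranked against each other by CPM per kb of exon. On that scale Alb (serum albumin) came first with 24270.2 CPM per kb, followed by Apoa1 (the main protein of high-density lipoprotein) with 18636, Afp (alpha-fetoprotein, the albumin-like carrier of fetal plasma) with 12504, Apoa2 with 12293, Trf (the iron carrier transferrin) with 11603 and Ahsg (fetuin-A, a mineral-binding plasma protein) with 9658 CPM per kb. The neutrophil gene S100a9 was the only member of a blood cell list among the first 25 per kb, at 4997 CPM per kb. The lists by CPM and by CPM per kb shared 15 of 25 genes, since short ribosomal, metallothionein and apolipoprotein transcripts moved up.

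**Figure D1:**
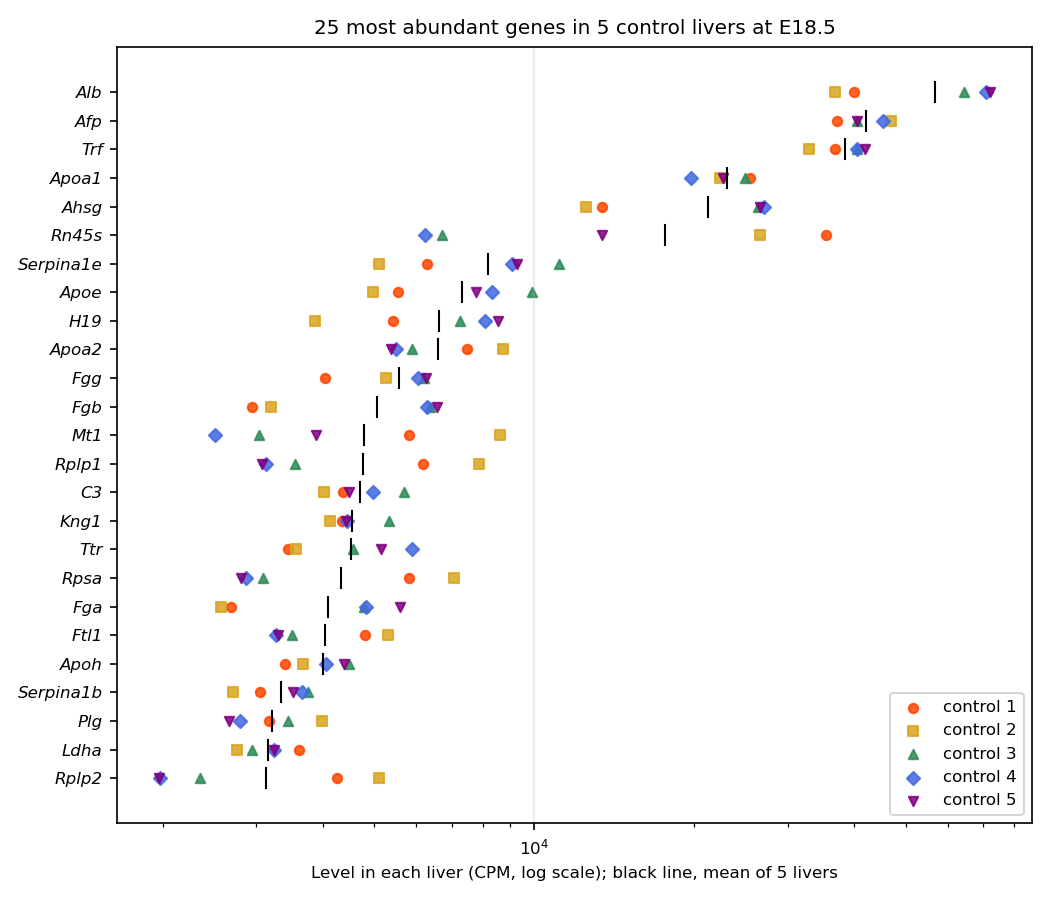
Level (CPM, log axis) of the 25 most abundant genes in each of the 5 control livers, 1 symbol a liver, with the mean of the 5 as a black line. Alb ranged from 36796 to 72239.6 CPM, with controls 1 and 2 lowest, while Afp stayed between 37119 and 47046 CPM and Rn45s was highest in controls 1 and 2.

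Albumin and alpha-fetoprotein are encoded by neighbouring genes, Alb at chr5:90460897-90476602 and Afp at chr5:90490737-90508907 (mm10, GENCODE M21), with 14.1 kb between them. Alb was at 39928, 36796, 64522, 70718 and 72239.6 CPM in controls 1 to 5. The values of controls 1 and 2 were below those of controls 3 to 5 without overlap. Afp was at 37119, 47046, 40539.7, 45421 and 40451 CPM and showed no such order, with control 2 highest and control 1 lowest. The ratio of Alb to Afp per kb was therefore 1.55, 1.12, 2.29, 2.24 and 2.57: albumin exceeded alpha-fetoprotein in each of the 5 livers on that scale, while by CPM control 2 had a ratio under 1 (0.782).

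All 52 plasma protein genes were in the table, 51 of them at a mean of at least 10 CPM. Together they took 23.9, 23.8, 31.2, 30.9 and 30.9% of the counts in controls 1 to 5, so more than 1 count in 5 in each liver came from this list. The median member stood at 920 CPM per kb, against 3.33 for all 13462 genes with a length. Compared with controls 3 to 5, controls 1 and 2 were lower in 36 of 52 members, against 38.4% of the 8277 genes of at least 10 CPM, and higher in 6, against 26.7%. That background depends on the scaling. TMM factors equalise the bulk of genes rather than the totals. With them the shares of the 8277 genes were 25.7% below and 38.1% above, and 31 plasma protein genes were below and 10 above. The same background is given for the lists below, although some of their members were under 10 CPM. Among 4291 genes of 1 to 10 CPM the shares by library totals were 46.8% below and 9.48% above.

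Within the list the livers did not move as a block. Ahsg was at 13440.2, 12512, 26396, 27097 and 26650.00 CPM, about the same in controls 3 to 5 and far lower in controls 1 and 2. Trf was at 36835, 32847, 40479, 40485 and 41961 CPM, with the same 2 livers lowest but a CV (SD over mean) of only 9.59%. Apoa2 was at 7485, 8749, 5897, 5503 and 5373 CPM and ran the other way, with controls 1 and 2 highest. The 3 fibrinogen chains, which assemble into the clotting protein, were at 5558 ± 941 CPM (Fgg), 5068 ± 1833 CPM (Fgb) and 4094 ± 1374 CPM (Fga). Fgb was at 2940.2, 3190.4, 6352, 6289.8 and 6568 CPM, with controls 1 and 2 again apart from the others. Apob, the backbone of very-low-density lipoprotein, reached 823 CPM, and Apoa4, a lipoprotein of fed adult liver and gut, was the lowest member at 9.14 ± 2.46 CPM. Serpina1a to Serpina1e, which encode nearly identical copies of alpha-1-antitrypsin, are uncertain one by one, because the treatment of reads shared by copies is not given in the sources used here; Serpina1e had the highest value at 8179 ± 2436 CPM.

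Transcription factors of hepatocyte identity were present at much lower levels. All 27 listed genes were in the table, 18 at a mean of at least 10 CPM, with a median of 3.47 CPM per kb, close to the 3.33 of all genes. Cebpa, a factor of mature hepatocytes, led the list per kb at 76.3 CPM per kb, followed by the pioneer factor Foxa3 at 55.4, Creb3l3 at 36.2 and the fatty acid sensor Ppara at 33.3. Hnf4a, the central nuclear receptor of hepatocytes, was at 77.2, 80.3, 156, 146 and 159 CPM. This put controls 1 and 2 at about the same low level, below all of controls 3 to 5. Foxa3 was at 123, 165, 109, 80.1 and 86.3 CPM and had the opposite order. Across the list 16 of 27 members were lower in controls 1 and 2 than in each of the others (38.4% of genes of at least 10 CPM) and 2 were higher (26.7%). Onecut1 at 1.53 ± 0.3 CPM and Nr5a2 at 3.35 ± 1.43 CPM were among the lowest, and Zbtb20, a repressor of Afp, was at 0.39 ± 0.099 CPM; these 3 were named after their values were seen.

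Fetal growth genes, many of them imprinted (read from 1 parental copy only), were among the most abundant. All 21 were in the table, 20 at a mean of at least 10 CPM, and their sum was 50126, 58466, 57457, 61866 and 57681 CPM, most of it Afp. H19, a maternally expressed RNA, was at 5424, 3858, 7259.7, 8069.5 and 8539.6 CPM. Igf2, the fetal growth factor that shares an imprinted domain with H19, was at 1059, 747, 1909.9, 1830.4 and 2019.5 CPM, and in both genes control 2 was lowest and control 5 highest. Igfbp2, a binding protein for insulin-like growth factors, was at 675, 1117, 1846, 1026 and 721 CPM, with control 3 standing above the others. Igfbp1, the binding protein regulated by insulin, was at 1206 ± 236 CPM, Igfbp4 at 835 ± 35.7 CPM and Grb10, an imprinted brake on growth signalling, at 1568 ± 206 CPM. Dlk1, a surface protein of hepatoblasts, was at 622, 520.1, 474, 622 and 567 CPM with no split of the livers. Gpc3, a glypican of fetal liver, was at 174, 196, 344, 386 and 373 CPM, lower in controls 1 and 2 than in the other 3. Igf1, the growth factor of the postnatal liver, was at 21.6 ± 3.27 CPM; per kb Igf2 was at 264 and Igf1 at 2.18 CPM per kb.

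Genes of the postnatal hepatocyte were at moderate levels. Of 32 listed genes 27 were in the table and 20 had a mean of at least 10 CPM; Cyp1a2, Cyp2c29, Mup3, Mup20 and Tdo2 were not analysed here. Their spread between livers was wide: the genes of at least 10 CPM had a median CV beyond counting error of 28.3%, against 14.1% for all genes. Cyp2e1, an alcohol-oxidising cytochrome of pericentral hepatocytes, was at 131, 143, 226, 199 and 252 CPM. Pck1, the rate-limiting enzyme of gluconeogenesis, was at 5.40, 8.09, 58.6, 28.1 and 31.6 CPM. In both genes controls 1 and 2 were lowest, and for Pck1 the highest liver had 10.8 times the lowest. In 17 of 27 members controls 1 and 2 were below the others (background 38.4%) and in 0 above them (26.7%); with TMM factors it was 15 (background 25.7%) and 0 (38.1%). G6pc, which releases glucose from glucose-6-phosphate, was at 21.9, 32, 68.5, 36.5 and 59.5 CPM and followed the same order. Glul, glutamine synthetase, was at 439.5 ± 39.1 CPM, with a CV of 8.9%. Cyp7a1, the rate-limiting enzyme of bile acid synthesis, was at 29.8 ± 5.81 CPM.

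Of the urea cycle, which detoxifies ammonia, all 8 listed genes were in the table. Their sum was 951, 1088, 1539, 1510.4 and 1548 CPM, with controls 1 and 2 below the others. Cps1, the entry enzyme in mitochondria, was at 416, 465, 713, 674 and 691 CPM, and Arg1, which releases urea, at 114, 119, 277, 338 and 379 CPM. Both were lowest in controls 1 and 2, and for Arg1 the highest liver had 3.32 times the lowest. Otc was at 54.9 ± 18.4 CPM and Asl at 192 ± 25.6 CPM. Ass1, the enzyme between these 2 steps, was at 0.507, 0.783, 0.725, 0.518 and 0.493 CPM, far below its neighbours in the pathway in every liver, and is taken up among the other observations.

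The sum of glycogen and glucose genes was among the steadiest of the liver lists by library totals. For 18 genes it was 3723, 3834, 4040.5, 3698 and 4001 CPM, a CV of 4.06%. With TMM factors controls 1 and 2 were above the others, and the highest sum was 1.18 times the lowest. The single genes were less steady. The 17 of at least 10 CPM had a median CV beyond counting error of 16.1%, against 14.1% for all such genes. It was at least 25% in 6 of them, against 17.1% of all such genes. Fbp1, a gluconeogenic phosphatase, led at 632 CPM per kb. Pygl, the phosphorylase that breaks down glycogen, was at 624, 752, 522, 522 and 566 CPM with control 2 highest, and Gys2, the liver glycogen synthase, at 71.3, 74.1, 154, 128 and 141 CPM with controls 1 and 2 lowest, so the synthase and the phosphorylase differed between livers in different ways.

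The summed level of bile acid genes had the widest CV between livers of the 33 lists after those of the sex genes and the niche ligands. The sum of 15 of 16 listed genes was 492, 548, 900.2, 853 and 798 CPM, a CV of 25.8%. Slc10a1, the uptake carrier of bile acids, was at 23.7, 46.5, 103, 108 and 95.3 CPM, and Abcb11, the export pump, at 71.2, 80.8, 171, 151 and 112 CPM. In both genes controls 1 and 2 were lowest without overlap. Slc27a5, which activates bile acids for conjugation, was at 84.9, 84.5, 95.8, 80.1 and 80.1 CPM and varied little. Of the 15 genes, 10 were below the others in controls 1 and 2 (background 38.4%) and 1 above (26.7%); with TMM factors it was 9 (background 25.7%) and 1 (38.1%).

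Among 18 of 20 listed iron genes, Trf dominated the sum. Ftl1 and Fth1, the light and heavy chain of the iron store ferritin, were at 4797, 5299, 3498, 3259.8 and 3297 and 890.2, 1325, 1538, 1764 and 1777 CPM. The most Ftl1 and the least Fth1 were in controls 1 and 2. Hamp, which encodes hepcidin, the hormone that limits iron release, was at 47, 12, 88.8, 25.8 and 52.4 CPM, with control 3 at 7.39 times control 2. Its order across the livers was not that of the 2 sets. Tfr2 and Tmprss6, regulators of hepcidin, were at 159 ± 21.6 CPM and 127 ± 26 CPM. Slc40a1, the iron exporter, was at 203 ± 35.4 CPM.

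Signals that support blood cells ranged from under 1 CPM, in 2 genes, to more than 1000 CPM. Of 24 listed niche ligands 18 were in the table. The chemokine Cxcl12, which retains blood precursors, was at 56.6, 63.8, 89.7, 101 and 77.4 CPM and lowest in controls 1 and 2. Thpo, thrombopoietin, the growth factor of megakaryocytes and stem cells, was at 7.60, 8.48, 14.3, 13.1 and 11.7 CPM, and Kitl, stem cell factor, at 7.74 ± 2.55 CPM. Fn1, fibronectin, was the most abundant member by CPM and was at 1118, 1036, 1941, 1898 and 2013 CPM.

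**Figure D2:**
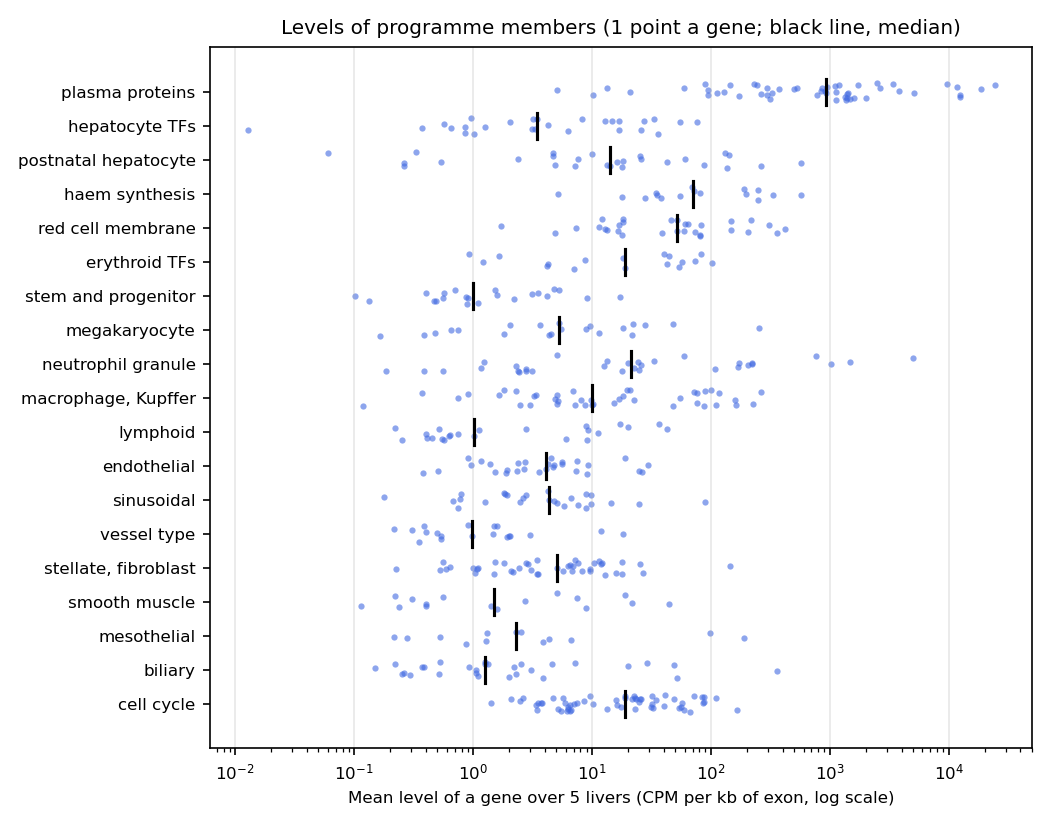
Mean level over the 5 livers (CPM per kb of exon, log axis) of each gene of 19 lists, 1 point a gene, with the median of the list as a black line. The median was 920 CPM per kb for plasma proteins, 70.7 for haem synthesis, 51.5 for red cell membrane genes, 21.3 for neutrophil granule genes and 0.981 to 5.32 for the stem cell, megakaryocyte, lymphoid, endothelial, stromal, mesothelial and biliary lists.

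Red cell formation was the largest blood programme. The 63 genes of 3 erythroid lists (haem synthesis, membrane and enzymes, transcription factors; 65 listed) took 20172, 19620.00, 13821, 17866 and 18508 CPM in controls 1 to 5, with a median of 46.2 CPM per kb. The plasma protein sum was 11.8, 12.1, 22.6, 17.3 and 16.7 times the erythroid sum. Control 3 therefore had the largest ratio and controls 1 and 2 the smallest. The adult globin genes, usually the most abundant RNA of red cells, were not analysed here, so these values leave out the main red cell product. Embryonic globins, which red cells of the yolk sac make, were low: Hba-x was at 18.9, 18.4, 12, 9.98 and 10.8 CPM, Hbb-y at 6.42, 6.53, 7.68, 8.99 and 8.47 CPM and Hbb-bh1 at 1.86, 2.48, 1.74, 3.50 and 2.64 CPM. Hbq1b, a theta globin, was at 28.5 ± 3.81 CPM; its near copy Hbq1a makes both values uncertain.

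All 16 haem genes were present at a mean of at least 10 CPM. Alas2, the erythroid enzyme that starts the pathway, led the list at 573 CPM per kb and was at 1613, 1420.5, 1083, 1353 and 1414 CPM. Control 3 was lowest. Alad, the next enzyme, was at 812, 797, 461, 544 and 479 CPM, highest in controls 1 and 2. Slc25a37, mitoferrin, which brings iron into mitochondria, was at 1780.2, 1942, 1020.5, 1364 and 1396 CPM, and Glrx5, which serves iron-sulphur clusters, at 949, 1125, 469, 490.1 and 477 CPM. In both, controls 1 and 2 were highest and control 3 lowest. Fech, which inserts iron into the ring, was at 476 ± 106 CPM. Control 3 was below both other male livers in 16 of 16 haem genes, where 40.5% of all genes of at least 10 CPM were.

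Of 32 listed red cell membrane genes and enzymes 30 were in the table. Slc4a1, the band 3 anion exchanger, was at 1859.8, 1595, 1124, 1391 and 1555 CPM. Rhd, a membrane protein of the Rh blood group, was at 433, 393, 243, 328 and 335 CPM. Tfrc, the transferrin receptor of iron-loading precursors, was at 1186, 1396, 549, 722 and 675 CPM. Control 3 was lowest in all 3 genes, and controls 1 and 2 had the most Tfrc. Car2, carbonic anhydrase 2, was at 761, 788, 848, 1289 and 1347 CPM and Hemgn, a nuclear protein of erythroblasts, at 162 ± 52.3 CPM; in Car2, controls 4 and 5 were highest. Control 3 was below controls 4 and 5 in 30 of 30 members (background 40.5%), and its sum, 6625 CPM, stood apart from the other 4, which were at 9047 to 9541 CPM. With TMM or DESeq2 factors, and with totals taken without Rn45s, control 3 was again below controls 4 and 5 in 30 of 30. Of genes of at least 10 CPM, 38.2, 36.5 and 41.4% were.

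The start sites of 3 of these genes are shown because each carries the same 6 letters, AGATAA, a form of the site of GATA factors, within 120 bases of the start. These 120 bases (RefSeq, GRCm38.p6, 5′ to 3′ on the gene's strand) are printed with the match in capitals, for Alas2 (chrX:150547297-150547416, plus strand), Rhd (chr4:134864416-134864535, plus strand) and the erythropoietin receptor gene Epor (chr9:21963577-21963696, minus strand), which was picked for its match.
Alas2: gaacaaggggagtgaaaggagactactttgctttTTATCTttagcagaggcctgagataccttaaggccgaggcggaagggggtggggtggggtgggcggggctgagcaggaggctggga
Rhd: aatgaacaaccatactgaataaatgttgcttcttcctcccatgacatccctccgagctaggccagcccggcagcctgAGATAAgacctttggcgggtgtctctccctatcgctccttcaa
Epor: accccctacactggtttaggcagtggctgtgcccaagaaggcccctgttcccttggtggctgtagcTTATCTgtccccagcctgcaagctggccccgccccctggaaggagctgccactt
The match began 86 bases before the start in Alas2, 43 in Rhd and 54 in Epor; in Alas2 and Epor it lies on the opposite strand and is printed as TTATCT. Epor was at 101, 75.7, 85.6, 97.4 and 101 CPM, with control 2 lowest. Both strands of the 250 bases before each start were searched, for 47 of 65 erythroid genes (65 promoters) and 40 of 52 plasma protein genes (45 promoters). AGATAA was in 12 of 65 erythroid promoters (18.5%), 5 of 45 plasma protein promoters (11.1%) and 9.99% of 32851 promoters of all genes. CCACACCC, a form of the site of KLF1, was in 1 of 65, 0 of 45 and 3.2%. These are matches of letters in a window, and no binding was measured.

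Erythroid transcription factors were all present, 17 of 17. Klf1, which drives globin and membrane genes, led per kb at 103 CPM per kb and was at 155, 167, 124, 168 and 172 CPM. Gata1, the master factor of red cells and megakaryocytes, was at 232, 207, 138, 158 and 159.5 CPM, and Nfe2 at 296, 244, 194, 236 and 259 CPM. Control 3 was lowest in these 3. Tal1, also made by endothelium, was at 68.6, 74.1, 70.5, 96.2 and 102 CPM and Gfi1b, a repressor of erythroid and megakaryocyte cells, at 88.4, 101, 59.1, 57.8 and 64.9 CPM. In these 2 the order differed, with Tal1 highest in controls 4 and 5 and Gfi1b highest in controls 1 and 2. Control 3 was below controls 4 and 5 in 13 of 17 factors and, over the 3 erythroid lists, in 59 of 63 genes (background 40.5%). With TMM factors it was 10 of 17 and 56 of 63 (background 38.2%), and with DESeq2 factors likewise 10 of 17 and 56 of 63 (36.5%).

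Genes of blood stem and progenitor cells were low and steady. Of 23 listed genes 22 were in the table, 8 of them at a mean of at least 10 CPM, with a median of 1 CPM per kb. Their sum was 289, 289.9, 307, 300.1 and 291 CPM, a CV of 2.68%, although a single gene, the adhesion receptor Adgrg1 at 93 ± 3.88 CPM, made up much of it. Kit, the receptor of stem cell factor, was at 16, 12.3, 20.3, 23.3 and 26.5 CPM. Cd34 was at 11.6 ± 2.33 CPM, Cd93 at 23.7 ± 2.41 CPM, Myb, a factor of proliferating progenitors, at 37.5 ± 2.96 CPM and Hlf, which is also a hepatocyte gene, at 20.8 ± 1.80 CPM. Mecom at 1.27 ± 0.507 CPM and Hoxa9 at 0.738 ± 0.213 CPM, factors of long-term stem cells, were near the floor; they were named after their values were seen.

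All 21 megakaryocyte genes were in the table, with a sum of 838, 844, 923, 659.7 and 663 CPM. Pf4, platelet factor 4, led at 252 CPM per kb and was at 218, 188, 219.7, 148 and 136 CPM. Itga2b, the platelet integrin chain, was at 178, 215, 159.8, 107 and 101 CPM and its partner Itgb3 at 151, 164, 132, 94.1 and 93.6 CPM. In all 3, controls 4 and 5 were lowest. Ppbp, another platelet chemokine, was at 39.6, 36.8, 72.8, 56 and 56.8 CPM and Gp9, part of the platelet receptor of von Willebrand factor, at 18, 17.4, 23.4, 19.4 and 20.03 CPM; both were highest in control 3. Control 3 was above controls 4 and 5 in 19 of 21 members, where 35.9% of genes of at least 10 CPM were. Megakaryocyte genes and erythroid genes were thus on opposite sides in this liver.

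Neutrophil genes were the second blood programme by level. Of 35 listed genes 32 were in the table and 23 had a mean of at least 10 CPM. S100a9, which with S100a8 forms the calprotectin of neutrophils, was at 2839, 2625, 2866, 2481 and 2232 CPM, and S100a8 at 471, 661, 885, 844 and 698 CPM. S100a9 was lowest in control 5, while S100a8 was lowest in control 1. Camp, the antimicrobial peptide of secondary granules, was at 1332, 1489, 1099, 872 and 759 CPM, Ngp at 922, 923, 1014, 934 and 856 CPM and Ltf, lactoferrin, at 826, 874, 785, 736 and 624 CPM. Camp and Ltf were highest in controls 1 and 2. Genes of the earlier primary granules were also present: Mpo, myeloperoxidase, was at 395, 526, 354, 303 and 288 CPM, Elane, neutrophil elastase, at 204, 165, 177, 144 and 143 CPM and Prtn3, proteinase 3, at 363, 328, 303, 249.99 and 243 CPM. Control 5 was lowest in all 3. Prg2, a protein of eosinophil granules, was at 27.6 ± 7.92 CPM, and Cpa3 and Ms4a2, genes of mast cells, were at 0.588 ± 0.384 CPM and 0.524 ± 0.173 CPM, near the floor; these 2 were named after their values were seen. Control 3 was above controls 4 and 5 in 23 of 32 members (background 35.9%).

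Lymphoid genes were low and mostly of early B cells. Of 30 listed genes 23 were in the table, with a median of 1.01 CPM per kb. Vpreb1, a surrogate light chain of B cell precursors, was at 76, 92, 29.5, 29.7 and 31.4 CPM. Controls 1 and 2 were above the other 3 livers. Vpreb3 was at 39.3, 33.8, 29.4, 25 and 30.2 CPM and Cd79b, a signalling chain of the B cell receptor, at 34.1, 35, 27, 23.8 and 23.3 CPM. Igll1, the partner of Vpreb1, was at 20.3, 21, 17.7, 19.2 and 20.5 CPM and did not follow it. Cd3d, a chain of the T cell receptor complex, was at 0.998 ± 0.262 CPM, near the floor, and was named after its values were seen; Gzma, a granule protease of killer cells, was at 11.4 ± 2.85 CPM.

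Macrophage genes had one of the steadiest sums by library totals. All 42 were in the table, 33 at a mean of at least 10 CPM, and the sum was 3905, 4109.8, 4201, 4143 and 3982 CPM, a CV of 2.99%. The steady sum hid opposite changes of its members. C1qa, C1qb and C1qc, the 3 chains of complement C1q, were at 335, 363, 252, 199 and 214, 168, 161, 202, 190.5 and 163 and 259, 201, 219.8, 189.7 and 199 CPM. C1qa was highest in controls 1 and 2 and C1qb was not. Lyz2, lysozyme, was at 251, 217, 347, 350.3 and 325 CPM, lowest in controls 1 and 2. Marco and Cd5l, a scavenger receptor and a secreted protein of resident macrophages, were at 192 ± 26.6 CPM and 176 ± 28.4 CPM. Clec4f, the lectin that marks Kupffer cells in mice, was at 136, 112, 165, 135 and 131 CPM, and Timd4, a receptor for dying cells, at 14.9, 17.4, 14.1, 14.2 and 14.9 CPM. Clec4f was highest in control 3 and Timd4 in control 2. Hmox1, which degrades haem, was at 277 ± 27.3 CPM. In all, 22 of 42 members were lower in controls 1 and 2 than in the others (38.4% of genes of at least 10 CPM) and 9 higher (26.7%). Lpl, lipoprotein lipase, gave the largest single part of the sum at 804 ± 134 CPM, and was named after its values were seen. It is not specific to macrophages in fetal liver. Without Lpl and Lyz2, chosen after seeing the data, the sum was 3041, 3145, 2995, 2819 and 2830 CPM. Controls 1 and 2 were then above the others, and were so under each scaling used. With TMM and DESeq2 factors they were above in the full sum as well.

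Endothelial genes were all present, 29 of 29 pan-endothelial genes, with a sum of 653, 660.4, 690.3, 689 and 703 CPM and a CV of 3.15%. Egfl7, a secreted endothelial protein, was at 129.5, 132, 102, 83.6 and 87.1 CPM, and Plvap, the diaphragm protein of fenestrae and caveolae, at 46.9, 49.2, 62, 54.6 and 47.6 CPM. Cldn5, a tight junction protein, was at 45.3, 52.7, 28.3, 23.8 and 27.2 CPM. Egfl7 and Cldn5 were highest in controls 1 and 2, while Eng, endoglin, was at 29.1, 23.9, 44.6, 43.8 and 46.8 CPM and lowest there.

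The sinusoid is the wide, leaky capillary of the liver, and its endothelium takes up waste by scavenger receptors. Of 28 listed genes 26 were in the table, with a sum of 1101, 1088, 1354, 1326 and 1294 CPM; 577 CPM of the mean came from the lysosomal protease gene Ctsl, which many cells make. Stab2, the hyaluronan receptor of sinusoids, was at 89.95, 77.4, 86.6, 86.6 and 85 CPM, a CV of 5.49%. Stab1 was at 174, 169, 144, 127 and 123 CPM, highest in controls 1 and 2. Lyve1, a second hyaluronan receptor, was at 6.02, 5.48, 17, 18.2 and 22.9 CPM, and was lowest in controls 1 and 2, so the 3 receptors had 3 different orders. Oit3, Clec4g and Ehd3 were at 25 ± 4.93 CPM, 18.7 ± 3.16 CPM and 43.8 ± 11.7 CPM. Genes of larger vessels were lower, with a median of 0.981 CPM per kb for 19 of 20 listed genes: Ackr1, a chemokine receptor of venules, was at 25.6 ± 5.67 CPM, Vwf, which platelets also carry, at 33 ± 3.23 CPM, and the arterial connexin gene Gja5 at 11.1 ± 4.32 CPM.

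Stellate cells store vitamin A, and with fibroblasts they make the matrix of the liver. Of 45 listed genes 43 were in the table, with a sum of 1724, 1711, 1889, 2136 and 2056 CPM. Sparc, a matrix glycoprotein, was at 54.4, 64.6, 110.4, 129 and 119 CPM, Col1a1, a chain of type I collagen, at 84.8, 68.5, 102, 142 and 120.1 CPM and Dcn, decorin, at 27.7, 44, 65.5, 70.9 and 71 CPM. All 3 were lowest in controls 1 and 2. Reln, a secreted protein of liver stellate cells, was at 157, 143, 155, 162 and 159 CPM, a CV beyond counting error of 4.14%, and did not separate the livers. In 26 of 43 members controls 1 and 2 were below the others (background 38.4%; 20 of 43 with TMM factors, background 25.7%), and control 3 was below controls 4 and 5 in 30 of 43 (40.5%). Desmin, named after its values were seen, was at 11.4 ± 1.10 CPM.

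Smooth muscle and pericyte genes were low and steady: 16 of 16 were present, and their sum was 243, 234, 246, 250.5 and 248 CPM, a CV of 2.68%. Acta2, smooth muscle actin, was at 48.7, 54.2, 40.6, 45.4 and 49.1 CPM and Tagln at 35.3, 34.1, 37.6, 41.6 and 38.4 CPM. Neither separated the livers into the 2 sets. Of 16 mesothelial genes, those of the liver's surface lining, 13 were in the table; Krt18 and Krt8, keratins that hepatocytes also make, were at 273 ± 39.1 CPM and 194 ± 26.7 CPM. The defining genes Msln (mesothelin) and Upk3b were at 13.4 ± 2.68 CPM and 8.07 ± 2.91 CPM, and Wt1, named after its values were seen, at 1.71 ± 0.57 CPM.

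Bile duct genes were low once shared genes are set aside. Of 36 listed genes 29 were in the table, and 11 had a mean of at least 10 CPM. The sum of 1576 ± 151 CPM became 441.5 CPM without members of other lists, because Cd24a, a surface protein of red cell precursors as well as ducts, alone gave 931 ± 143 CPM. Krt19 and Krt7, the keratins of the duct, were at 6.92, 6.92, 7.34, 7.65 and 7.08 and 8.50, 7.18, 7.01, 7.56 and 6.77 CPM. Both were nearly equal in all 5 livers. Sox9, the factor of duct progenitors, was at 3.60, 2.87, 5.94, 5.75 and 3.90 CPM and Epcam, an adhesion protein of ducts and hepatoblasts, at 4.62, 6.53, 4.30, 4.80 and 3.90 CPM. Spp1, osteopontin, was at 28.3, 23.2, 28.8, 51.8 and 34.2 CPM with control 4 highest.

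Proliferation genes were abundant, and 59 of 59 were in the table. Their sum was 6924, 6963, 5557, 6720.4 and 6517 CPM, with control 3 lowest. Mki67, the marker of cycling cells, was at 574, 584, 466, 635 and 640.5 CPM, Pcna, the replication clamp, at 148, 148, 157, 219.7 and 189.8 CPM and Ccna2, a cyclin of S phase and mitosis, at 274, 285, 184, 239 and 232 CPM. Control 3 was below controls 4 and 5 in 52 of 59 members (background 40.5%), the same side as its erythroid genes. Ccnd3, the D-type cyclin of blood precursors, was at 756, 735, 479, 455 and 476 CPM and Birc5, which acts in cell division, at 375, 479, 201, 227 and 207 CPM; both were highest in controls 1 and 2. Which cells these transcripts came from was not measured.

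The dissected tissue was checked with genes of neighbouring organs. Of 19 pancreas genes 2 were in the table, Cela1 at 33.3 ± 4.24 CPM and Clps at 0.429 ± 0.32 CPM. Of 21 gut and stomach genes 5 were, led by Tff3, a trefoil peptide, at 279 ± 32.5 CPM. Of 21 muscle genes 10 were, with a sum of 26.8 to 33 CPM, and of 25 genes of skin, nerve, lung, kidney and adrenal 5 were, of which only the fatty acid binding protein gene Fabp4, at 101 ± 19.5 CPM, exceeded 10 CPM. Dnajb1 and Prkaca, the genes joined in the fusion of the other livers, were at 44.3, 39, 44, 52.9 and 54.3 and 41.1, 47.3, 39, 38.2 and 46.6 CPM in the controls.

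Early response genes differed widely in level, and acute phase genes in their order across the livers. Of 28 immediate early genes, which respond within minutes to handling or signals, 25 were in the table and 17 had a mean of at least 10 CPM, with a median of 4.61 CPM per kb against 3.33 for all genes. Jund was at 236 ± 40.5 CPM and Btg2 at 140.3 ± 10.8 CPM, while Fos was at 1.12 ± 0.458 CPM, Egr1 at 14 ± 5.98 CPM and the heat shock gene Hspa1a at 0.706 ± 0.184 CPM; the last 3 were named after their values were seen. Of 22 acute phase genes 18 were present. Mt1 was at 5822, 8634, 3032, 2508 and 3879.96 CPM and Saa3 (serum amyloid A3, named likewise) at 129, 135, 44.1, 37.9 and 56.2 CPM. Both were highest in controls 1 and 2. Serpina3n, named likewise, was at 47.8, 38.4, 158, 127 and 138 CPM and lowest there, so acute phase genes did not share 1 order.

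**Figure D3:**
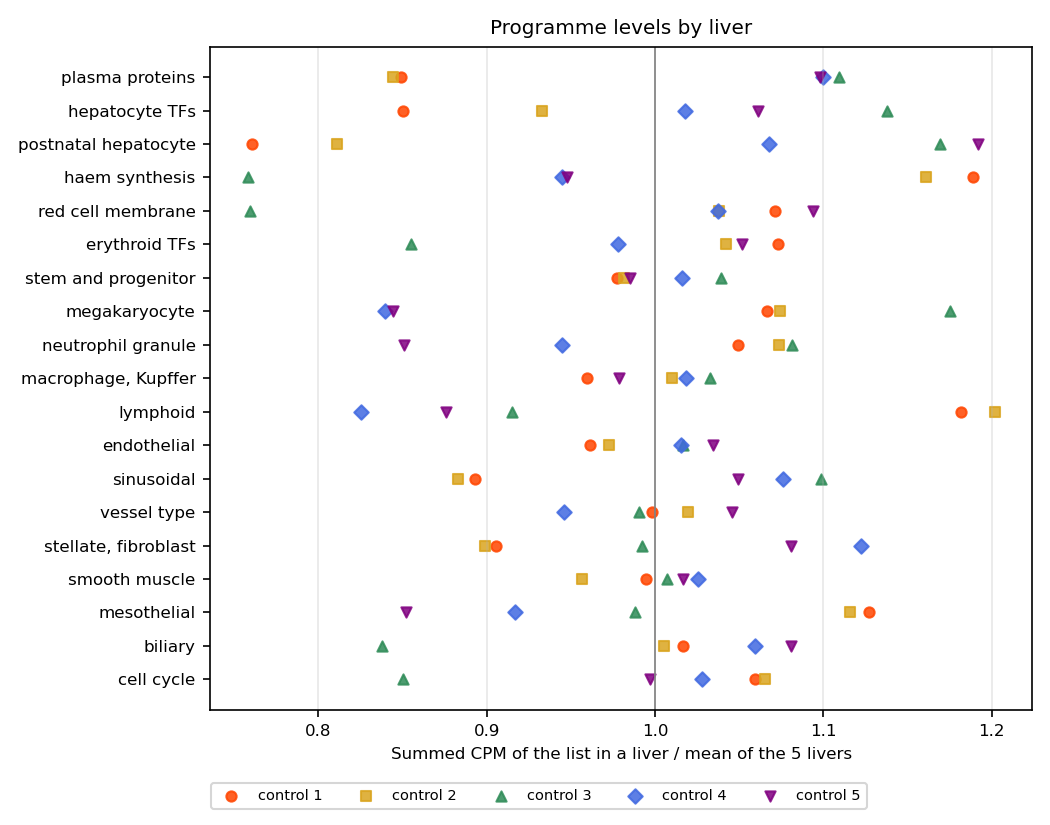
Summed CPM of each of 19 lists in a liver, divided by the mean of the 5 livers, 1 symbol a liver. Controls 1 and 2 sit left of controls 3 to 5 for plasma proteins, postnatal hepatocyte and sinusoidal genes and right of them for haem synthesis, lymphoid and mesothelial genes, and control 3 is lowest for haem synthesis, red cell membrane, erythroid factor, biliary and cell cycle genes; the biliary sum is mostly Cd24a, also on an erythroid list, and the mesothelial sum mostly Krt18 and Krt8.

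The lists gave 2 separate patterns of spread. In the first, controls 1 and 2 stood below controls 3 to 5 in the sums for plasma proteins, postnatal hepatocyte genes and bile acid genes, and above them for haem synthesis, lymphoid and ribosomal protein genes. These positions were the same under TMM factors, DESeq2 factors and totals without Rn45s, and, chosen after seeing the data, without the 1 or 2 most abundant members under each of these scalings. By member the lists that were higher were less even. Controls 1 and 2 were above the others in 7 of 16 haem, 6 of 23 lymphoid and 38 of 81 ribosomal protein genes (background 26.7%). They were below in 1, 2 and 19 (38.4%). Only 7 of the 23 lymphoid genes had a mean of at least 10 CPM. Of genes of 1 to 10 CPM, 9.48% were above and 46.8% below. The 81 ribosomal protein genes took 9.73, 10.1, 7.85, 7.12 and 7.05% of counts.

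Other sums kept their position under the 4 scalings but rested on 1 or 2 genes. The sinusoidal sum without Ctsl was 631, 628, 698, 667 and 656 CPM, and with TMM factors 666, 676, 673, 631 and 633 CPM, where controls 1 and 2 were no longer below. Niche ligands without Fn1 and Igf2 were at 929.5, 876, 928, 1162 and 1074 CPM, with no split, and the urea cycle without Cps1 and Arg1 likewise had none. Mesothelial genes without Krt18 and Krt8 were at 89.95, 80.1, 86.5, 88.9 and 77.3 CPM, again with no split by library totals but with controls 1 and 2 above the others by TMM factors. The cell cycle sum without Ccnd3 and the immediate early sum without Jund had no split by library totals and controls 1 and 2 above the others by TMM factors. For the sums of hepatocyte factors, iron genes, pan-endothelial, smooth muscle, stellate and stem cell genes the position of controls 1 and 2 changed with the scaling, and no direction is given.

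In the second pattern, control 3 stood below controls 4 and 5 in the sums of erythroid and cell cycle genes. It stood above them in those of megakaryocyte, neutrophil and plasma protein genes (33 of 52 plasma protein members, background 35.9%). These positions likewise held under all 4 scalings and without the 1 or 2 most abundant members. By library totals the plasma protein sums were close, at 312185 CPM in control 3 and 309501 and 309086 CPM in controls 4 and 5. The biliary sum without Cd24a was 614, 647, 634, 680.1 and 650.4 CPM by library totals, with control 1 lowest. With TMM factors it was 648, 696, 612, 643 and 628 CPM, with control 3 lowest. Under all 4 scalings control 3 stayed below controls 4 and 5 in this sum. By member, however, control 3 was below controls 4 and 5 in 8 of 29 (40.5%) and above in 12 (35.9%).

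Gene by gene, the livers were alike to within a modest spread. The CV beyond counting error, which is the CV left after the expected Poisson part is taken off, had a median of 14.1% over 8277 genes of at least 10 CPM, with quartiles of 8.9 and 21.5%. It was at least 25% in 1418 genes (17.1%) and at least 50% in 68, and in 248 genes the spread was no more than counting gives. Of the 1418 genes, 1350 had controls 1 and 2 on 1 side of the other 3, 477 above and 873 below, where 65.1% of all 8277 genes did. Among controls 3 to 5 alone the median was 6.41%, and 120 genes were at 25% or more. Between controls 1 and 2, 11 genes differed by 2-fold or more, among controls 3 to 5 it was 12 to 16, and between the 2 sets 247 to 442.

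**Figure D4:**
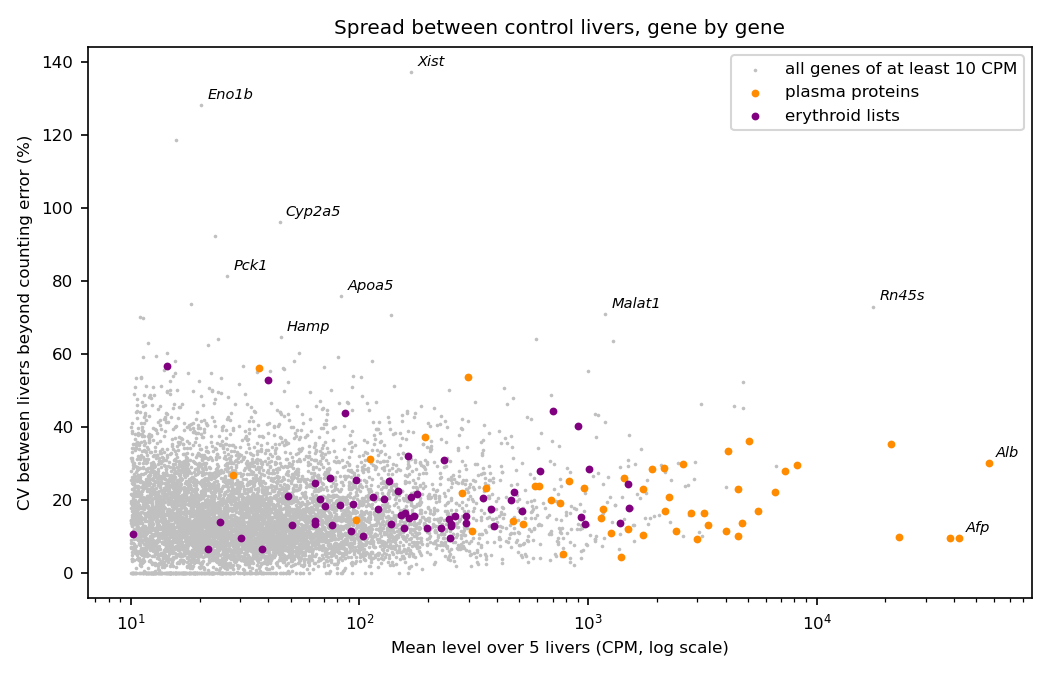
CV between the 5 livers beyond counting error (%) against mean level (CPM, log axis) for 8277 genes, with plasma protein genes in orange and genes of the erythroid lists in purple. Most genes lie under 25%, and Xist, Eno1b, Cyp2a5, Pck1, Apoa5, Rn45s, Malat1 and Hamp are among those far above.

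Several of the genes with the widest spread were high or low in a single liver. Cyp2a5, a cytochrome of coumarin metabolism, was at 121, 22.2, 23.4, 31.5 and 25.1 CPM, high in control 1 alone. Apoa5, a regulator of plasma triglycerides, was at 42, 62.5, 195, 50.3 and 66.5 CPM, high in control 3 alone. Eif2s3y, a Y-linked translation factor, was at 0, 0, 35.6, 6.70 and 36.2 CPM, and within the male livers control 4 was lowest. Eno1b and Akr1e1 did not follow any set, at 22, 15.4, 0.387, 0.173 and 63.8 and 9.91, 12.8, 32.9, 32.6 and 3.49 CPM. Eno1b is a near copy of the glycolytic gene Eno1 and its value is uncertain. Other genes followed the 2 sets: Malat1, a nuclear RNA, was at 2557, 1456, 529, 615 and 802 CPM, Lars2, a mitochondrial tRNA ligase, at 2416, 1803, 495, 599 and 1111 CPM and Mir6236, a short annotated RNA, at 1233, 604, 316, 297 and 516 CPM. All 3 were highest in control 1 and followed Rn45s, at 35449, 26555, 6692, 6224 and 13392 CPM. Acacb, which limits fatty acid oxidation, was at 95.8, 84.7, 27.2, 29.6 and 35.3 CPM, highest in controls 1 and 2. At the other end, Rab7, a small GTPase of late endosomes, was at 167, 159, 161, 162 and 164 CPM, Mtch2, a mitochondrial outer membrane protein, at 149, 151, 149, 150.4 and 146 CPM and Ugcg, which makes glucosylceramide, at 49.2, 49.2, 50.2, 49.6 and 48.8 CPM. None of these last 3 varied beyond counting error.

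Transcript length moved with the 2 sets. Genes were grouped by the length of their longest transcript. In genes of up to 1000 bp, the median log2 deviation from the mean of the 5 livers was 0.14, 0.083, -0.014, -0.10 and -0.15 in controls 1 to 5. In genes over 6000 bp it was -0.068, -0.093, -0.013, 0.068 and 0.079. Relative to the mean, controls 1 and 2 thus had more short and fewer long transcripts, control 3 lay near 0 at both ends, and controls 4 and 5 had the reverse. Ribosomal protein genes are mostly short, and most collagen and matrix genes are long. The part of transcript length and of Rn45s in the differences between the sets was not tested.

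**Figure D5:**
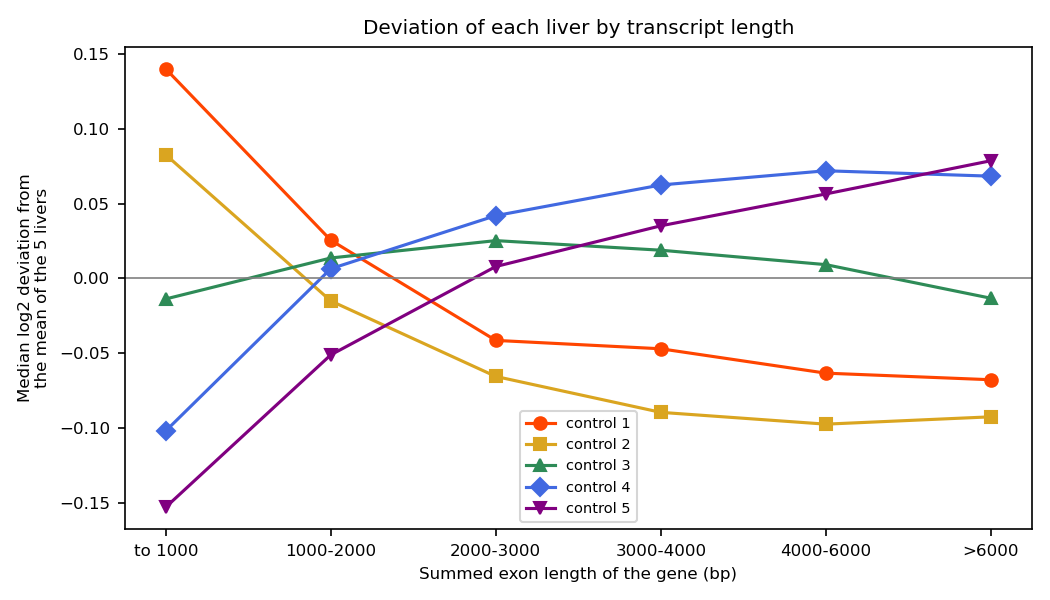
Median log2 deviation of each liver from the mean of the 5 livers, for genes grouped by the summed exon length of their longest transcript (374 genes up to 1000 bp, 1095 genes over 6000 bp). Controls 1 and 2 go from 0.14 and 0.083 down to -0.068 and -0.093 with length, and controls 4 and 5 from -0.10 and -0.15 up to 0.068 and 0.079.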

How the data were processed

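Poly-A RNA of 5 control livers was analysed from the table of raw counts by gene symbol that the authors deposited. The submitters' processing notes name STAR 2.5.1b, DESeq2 and the build mm10, with no role; the counting tool, annotation, strand setting and treatment of shared reads are not given in the sources used here. Each of its 13549 genes sums to 47 or more counts in the 9 embryo libraries together, and lower genes were not analysed here. A second block of columns, the same counts rescaled, was not used. Groups come from the genotype label.

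Counts were divided by library totals (CPM), and by summed exon length from GENCODE M21 (13103 symbols matched directly and 359 by a RefSeq synonym). Totals were 7.66 to 23.1 M, and no pair of libraries agreed within counting noise (lowest chi-square per degree of freedom 12.34). The CV beyond counting error, tested on simulated data, returned 48.5% for 200 genes made with 50% and 10.1% for 8077 genes made with 10%. Floors cover counting error only.

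The genes, lists and rules were chosen with earlier results of these data known. Named were the 25 genes highest by CPM and by CPM per kb, up to 8 of each of 33 lists, the 20 with the widest and 10 with the narrowest spread, sex genes and 25 fixed genes; some of them are not reported here. Alternatives were TMM (edgeR 4.0.16) and DESeq2 1.42.0 factors, other totals, each liver left out, other list members and other filters. Python 3.11.15 and R 4.3.3 were used.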

Additional observations from a re-analysis of the deposited data

Results flagged for a closer look

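A single liver stood apart from the other 4, by a gap of more than 0.71 of the group's range, in 11 of 329 values screened. Of all 8277 genes of at least 10 CPM, 325 (3.93%) had such a gap. A nominal 1 in 20 would give about 16.4 of 329. That figure assumes independent, normally distributed values, and sums of lists and their members are not independent. Control 3 was apart in 4: the sum of the red cell membrane list was low at 6625 CPM (the others 9047 to 9541), Kng1, the bradykinin precursor, was high at 5329.9 CPM (others 4127 to 4448), Asl of the urea cycle was high at 237 CPM, and Apoa5 was high at 195 CPM. Control 1 was apart in 4: Cyp2a5 was high at 121 CPM, Lyl1, a blood factor, was high at 122 CPM, the atrial myosin gene Myl7 was high at 4.45 CPM, and Slc25a13, an aspartate carrier, was low at 106 CPM. In control 2, Timd4 was high at 17.4 CPM, and 13464 genes had a count, against 13534 to 13544 in the others; it is the library with the fewest counts. In control 4, Ier3, an early response gene, was low at 10.9 CPM. Control 5 was apart in 0.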

How the results depend on the processing

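No paired analysis was possible because a single group was described and no test between groups was made. Under TMM and DESeq2 factors and, chosen after seeing the data, totals without Rn45s, the mean sums of all 33 lists moved by less than 1 SD. The TMM factors ran from 0.9296 to 1.058, on both sides of 1, and the DESeq2 factors were centred likewise. Such factors could hardly move a mean over the 5 livers, so no stability is read from this result. Totals without globin and mitochondrial genes could not show a change. The globins analysed summed to a mean of 55.1 CPM, and mitochondrial genes were not analysed here. Leaving out 1 of 5 livers cannot move a mean by 1 SD of the 5, so only the ranges are given. They were 273823 to 292430 CPM for plasma proteins, 7217 to 8033 for haem synthesis and 8517 to 9246 for red cell membrane. For neutrophil, macrophage and sinusoidal genes they were 7950 to 8417, 4035 to 4109 and 1202 to 1269 CPM. For stellate and biliary genes they were 1845 to 1951 and 1544 to 1640 CPM. The direction of the split did depend on scaling: of genes with controls 1 and 2 apart, 59% were below with library totals, 40.3% with TMM factors and 39.9% with DESeq2 factors. Sums rest on their top members. Without the most abundant one, 31 of 33 moved: plasma proteins to 224655, haem synthesis to 6074, red cell membrane to 7217, neutrophil to 5506, macrophage to 3264, sinusoidal to 656.1, stellate to 1521 and biliary to 645.2 CPM. Without members of another list, 17 of 25 moved: plasma proteins to 191377, haem synthesis to 5998, red cell membrane to 6750, macrophage to 3506, sinusoidal to 1040 and biliary to 441.5 CPM. Of the 25 most abundant genes, 15 stayed per kb and 23 to 25 with a liver left out. Genes with a CV of at least 25% numbered 1418, or 2882 with a minimum of 1 CPM, 3358 with no minimum and 1050 to 1749 with a liver left out; the cause of these changes, beyond the number of genes or livers used, was not tested. Depth limits genes near the floor of 0.13 to 0.392 CPM.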

Other observations

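Some genes that adult liver or most cells make in quantity were at low values in all 5 libraries; they were picked after their values were seen. Ass1, a urea cycle enzyme, was at 0.507, 0.783, 0.725, 0.518 and 0.493 CPM. Ubb, a polyubiquitin gene, was at 6.02, 7.05, 16.7, 22 and 22 CPM, and Pgam1, a glycolytic enzyme, at 7.82, 8.35, 22.1, 33.9 and 36.7 CPM. Gapdh, another glycolytic enzyme, was at 301, 289, 618, 726 and 771 CPM. Pgam1 and Gapdh were lowest in controls 1 and 2. How reads shared with near-identical copies were treated is not given in the sources used here, so these levels are uncertain, and the cause was not tested.

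Several short or host RNAs that a poly-A library was not made for were also counted. Mir6236 and Rn45s were highest in control 1.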
